A study of Homo sapiens with 6 samples.

Results

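A human cell builds its ribosomes mainly in the nucleolus. RNA polymerase I copies the ribosomal DNA into a long precursor RNA, small nucleolar ribonucleoproteins (snoRNPs) modify that precursor, and assembly factors fold and cut it while ribosomal proteins join. The factors fall into those that build the small subunit, those that build the large subunit, the snoRNP proteins and the polymerase with its helpers. Growing tumour cells are known for large nucleoli and a high demand for these factors.

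The transcripts described here are those of 43 named genes of ribosome biogenesis and RNA polymerase I, given by name, without a threshold on their values, though with earlier results of these data known. All 43 were found by identifier among the 63086 genes of the count table, and all 43 passed the filter on low counts, which kept 16046 genes. They comprise 8 snoRNP genes, 13 small subunit genes, 11 large subunit genes, 7 polymerase I genes and 4 genes of nucleolar proteins with several roles. They lie on 18 chromosomes, 7 of them on chromosome 2. Counts per member and library ranged from 334 to 40225.

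RNA came from A375, an established human melanoma line, as 3 wild-type libraries (WT1 to WT3) and 3 libraries of cells in which CRISPR/Cas9 had disrupted DUS1L (KO1 to KO3). Its product makes dihydrouridine, a reduced form of uridine, in tRNA. The knockout cells had been selected as clones and the wild-type cells were grown alongside without targeting. The guide, the alleles and the number of clones are not given in the sources used here, so a difference between genotypes cannot be told apart from one between a clone and its parent population. The submitters call the libraries biological replicates without saying how the cultures were kept apart, so p-values measure the spread between these libraries.

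The libraries held 17121315 to 18861514 estimated counts, so 3 counts correspond to 0.159 to 0.176 CPM (counts scaled to library size). DUS1L itself stood at 79.95, 75.7 and 77.0 CPM in WT1 to WT3 and 55.4, 54.7 and 53.1 CPM in KO1 to KO3, 70.2% of the wild-type level. Principal component 1 (53% of the variance) separated the genotypes. WT1 stood apart from the other libraries on component 2, at 31.6 against -16.3 to 9.2. The lineage marker SOX10 was high in every library, at 604 ± 16.9 CPM in the wild type against 480.5 ± 33.8 CPM in the knockout (SD, n = 3 each), whereas the pigment enzyme gene TYR was at 0 in all 6. Over the 11 lineage markers the summed level was 775 to 797 CPM in WT1 to WT3 and 570 to 633 CPM in KO1 to KO3. SOX10, S100B, MC1R, ERBB3 (log2 fold change -0.86) and EDNRB (-1.11) were called lower. MITF (0.07) and S100A1 were not called. Markers of other cells were low or of mixed origin. The 5 endothelial markers summed to at most 3.99 CPM, the 6 leukocyte markers to 3.41 to 4.59 CPM in WT1 to WT3 and 7.45 to 13.0 CPM in KO1 to KO3, with CD3E at 0. The leukocyte marker ITGAM was called higher, also by a test against a change of 1.5-fold, at 2.55 CPM in the wild type and 8.09 CPM in the knockout. The 6 fibroblast markers summed to 40.9 to 107 CPM in WT1 to WT3 and 84.5 to 184 CPM in KO1 to KO3. Of these only PDGFRB was called, and it was lower, at 11.8 CPM in the wild type and 6.36 CPM in the knockout. COL1A1, at 4.70, 15.9 and 37.7 CPM in WT1 to WT3 and 29.2, 100.8 and 28.5 CPM in KO1 to KO3, was not called, nor was COL1A2. The 6 keratinocyte markers summed to 50.1 to 59.4 CPM over all libraries with KRT5 and KRT1 at 0. The part of these markers in the results below was not tested.

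Many promoters of this pathway carry the E-box CACGTG, the palindrome bound by MYC with its partner MAX, and it is shown here because it is shared by genes that moved in opposite directions. Of the 36 members with an entry in the RefSeq promoter table (GRCh38.p14, 250 bases before to 50 after each start, 300 in all), 16 held CACGTG, a share of 44.4%. The motif reads the same on both strands. It occurred in 12.4% of the 11574 tested genes in that table and in 8.77% of all 27305 genes in it. Windows of 30 bases around the motif (27 where the table's entry ends), written 5′ to 3′ on the gene's strand with the motif in capitals, follow for 5 members that were higher in knockout cells, 3 that were lower and 2 that were not called.
NOL6: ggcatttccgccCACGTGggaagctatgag
WDR43: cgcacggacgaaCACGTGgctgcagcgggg
NOP14: tccgcggcccggCACGTGtcttagggtagc
NOP2: aggtccggattgCACGTGgagggccgc
PES1: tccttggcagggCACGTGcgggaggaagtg
FBL: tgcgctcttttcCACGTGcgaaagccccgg
NOP10: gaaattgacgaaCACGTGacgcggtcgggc
GNL3: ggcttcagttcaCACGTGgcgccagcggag
UTP20: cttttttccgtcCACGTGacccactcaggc
MYBBP1A: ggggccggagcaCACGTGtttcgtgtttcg
The first 5 windows lie at chr9:33473894-33473923 (minus strand), chr2:28894658-28894687 (plus), chr4:2963374-2963403 (minus), chr12:6568242-6568268 (minus) and chr22:30591880-30591909 (minus). The next 3 lie at chr19:39846356-39846385 (minus), chr15:34343130-34343159 (minus) and chr3:52686026-52686055 (plus). The last pair lies at chr12:101280083-101280112 (plus) and chr17:4555340-4555369 (minus).

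The E-box was found in members of both directions. It was present in 5 of 9 matched members called higher, 3 of 9 called lower and 8 of 18 not called. By class it was present in 7 of 12 small subunit, 4 of 9 large subunit and 3 of 6 snoRNP members, and in 0 of 5 polymerase I members. The ETS-type word CCGGAAG, searched on both strands, was found in 14 of 36 members (38.9%) against 21.3% of the tested genes in the table. A match describes letters in the window and not binding.

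Transcripts of the group moved in both directions in knockout cells, by small amounts. By edgeR's quasi-likelihood test with Benjamini-Hochberg adjustment over all genes tested, 13 members were higher, 9 were lower and 21 were not called at an adjusted p of 0.05. Over all tested genes 41.2% were called, 20.5% higher and 20.7% lower, against 51.2% of the members, 30.2% higher and 20.9% lower. Without WT1, 12 members were higher and 10 lower, without WT2 10 were higher and 5 lower, and with library size alone for scaling 18 were higher and 5 lower. Members are well expressed, and among the 7228 genes within their range of mean CPM, a background chosen after seeing the data, 54.5% were called (25.3% higher and 29.1% lower), so the members' share is near that of genes at their level. The median log2 fold change of the members was 0.05 against -0.004 for all genes tested, and their range was -0.38 to 0.45. Called members differed by 1.10-fold to 1.36-fold, with a median of 1.22-fold.

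No member was called by the test against a change of 1.5-fold (edgeR's glmTreat), which called 3.58% of all genes. At an unadjusted p of 0.05 that test also took 0 members, and limma-voom and DESeq2 with the same fold took 0. Knockout and wild-type libraries did not overlap for 27 of the 43 members, 17 higher and 10 lower. Over all tested genes they did not overlap for 51.1%, 25.4% higher and 25.8% lower. In bulk RNA, a lower level in every cell and fewer cells with the transcript cannot be told apart.

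**Figure D1:**
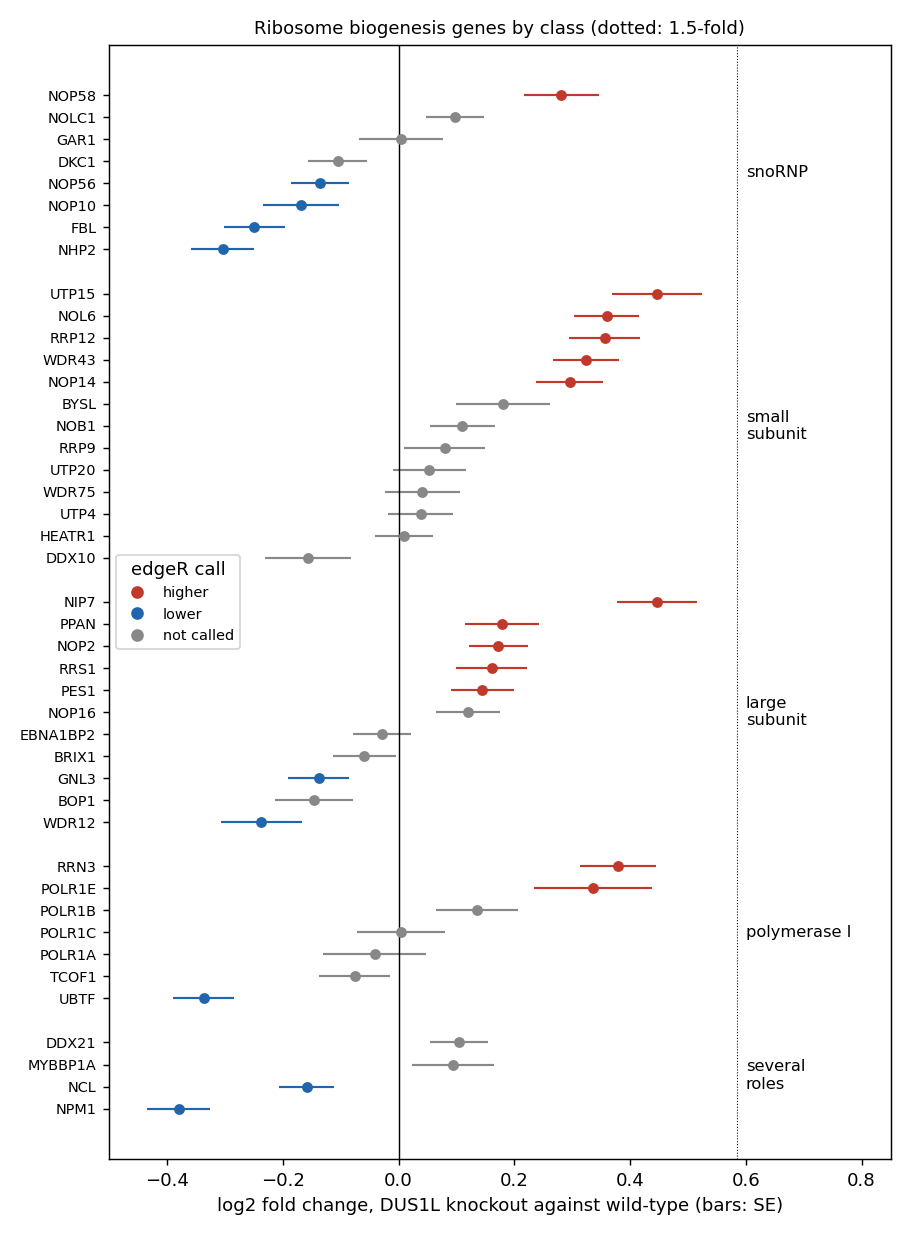
Log2 fold change of each of the 43 genes (x axis, DUS1L knockout against wild-type, points with SE bars), grouped by class on the y axis, in red where called higher, blue where called lower and grey where not called. The small subunit class has 5 red points and no blue one, the snoRNP class has 4 blue points and 1 red, and no point reaches the dotted 1.5-fold line.

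Of the 8 snoRNP genes, 4 were called lower, 1 was called higher and 3 were not called, where 20.7% of all tested genes and 29.1% of those at the members' level were called lower. The class median was -0.12 on the log2 scale. With library size alone for scaling 2 of the 8 were called lower. The box C/D snoRNP guides 2′-O-methylation of rRNA. Its proteins include FBL, NOP56 and NOP58, and these 3 genes were all called but not in the same direction. SNU13, a further protein of this particle, is grouped below with the assembly factors. For SNU13 edgeR gave no call (-0.09 on the log2 scale, adjusted p = 0.184). FBL (fibrillarin, the methyltransferase, chr19:39834458-39846379) stood at 206, 212 and 195 CPM in WT1 to WT3 and at 171, 172 and 172 CPM in KO1 to KO3. Every knockout library lay below every wild-type library, and FBL fell 1.19-fold (log2 fold change -0.25, SE 0.05, adjusted p = 0.000604, edgeR).

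NOP58 (chr2:202265736-202303661), a scaffold that pairs with NOP56 on the snoRNA, went the other way. It stood at 183, 147 and 162 CPM in WT1 to WT3 and 203, 196 and 198 CPM in KO1 to KO3. The groups did not overlap although the wild-type values spread more widely, and NOP58 rose 1.22-fold (log2 fold change 0.28, SE 0.07, adjusted p = 0.00185, edgeR). NOP58 had fractional counts in all 6 libraries. Its partner NOP56 was at 333, 338 and 317 CPM in WT1 to WT3 and 298, 295 and 308 CPM in KO1 to KO3, a 1.10-fold lower level (adjusted p = 0.0343, edgeR). The NOP56 call was lost in 6 of the 14 alternative analyses, and its direction was kept in all 14.

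The box H/ACA snoRNP, which converts uridine to pseudouridine in rRNA, holds DKC1, NHP2, NOP10 and GAR1. NHP2 (chr5:178149463-178153894), an RNA-binding core protein, was at 148, 156 and 144 CPM in WT1 to WT3 and 119, 122 and 123 CPM in KO1 to KO3. The groups were well apart and NHP2 fell 1.23-fold (log2 fold change -0.30, SE 0.05, adjusted p = 0.000132, edgeR). NHP2 had fractional counts in all 6 libraries and shares 414 exon bases with RMND5B on the opposite strand, which was not called. NOP10, the smallest core protein, had a log2 fold change of -0.17 (adjusted p = 0.046, edgeR) with overlapping groups, and that call was lost in 10 of the 14 alternatives. DKC1, the pseudouridine synthase, had a log2 fold change of -0.11 (adjusted p = 0.102). GAR1 was at 49.1, 51.4 and 48.2 CPM in WT1 to WT3 and 50.9, 52.0 and 46.3 CPM in KO1 to KO3, with overlapping groups (log2 fold change 0.00, SE 0.07, adjusted p = 0.97). NOLC1, a chaperone that shuttles snoRNPs to the nucleolus, was at 243, 256 and 260.1 CPM in WT1 to WT3 and 268, 269 and 276 CPM in KO1 to KO3, a difference that was not called (adjusted p = 0.122). Without WT2, or without any 1 of the knockout libraries, the count of snoRNP genes called lower was 2 (FBL and NHP2) in place of 4.

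**Figure D2:**
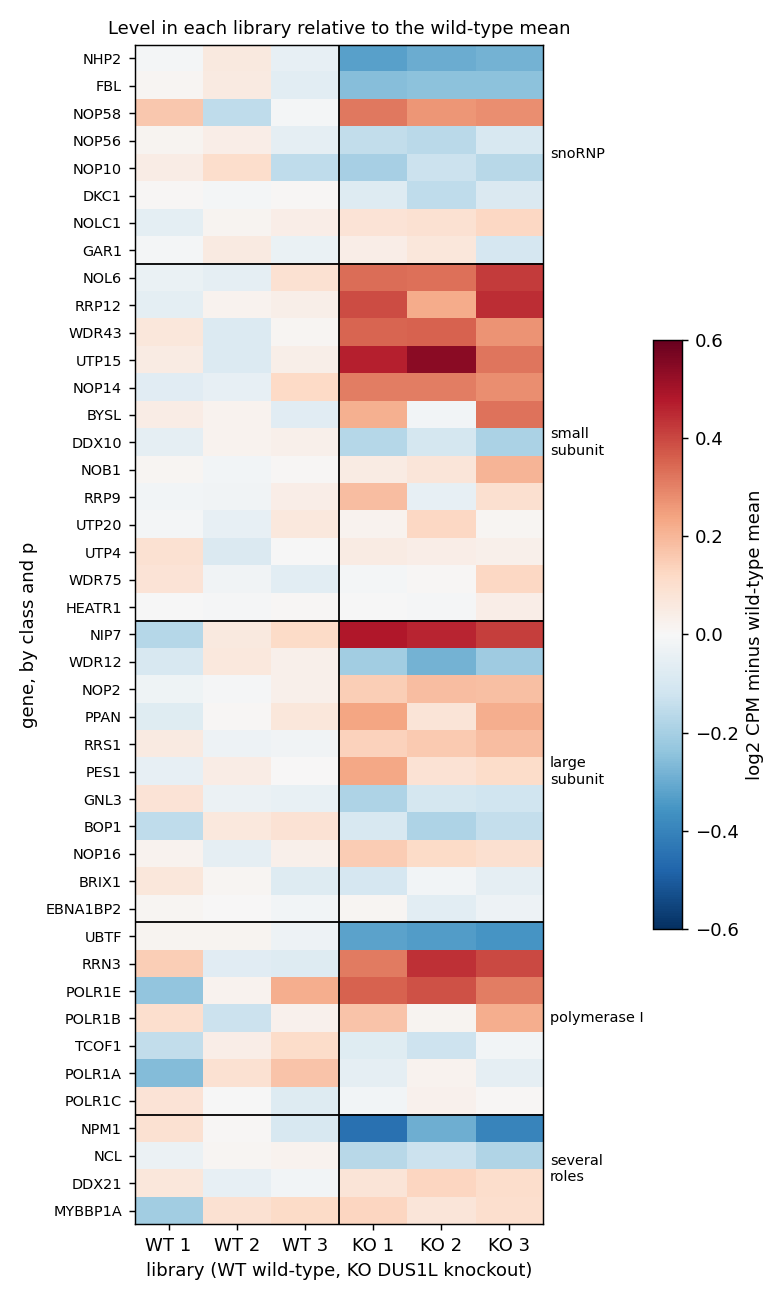
Level of each gene (rows, by class and then by p) in each of the 6 libraries (columns), as log2 CPM minus the wild-type mean, from blue (lower) to red (higher). Rows such as NOL6 and NIP7 are red in all 3 knockout columns and UBTF and NPM1 are blue in all 3, while POLR1A and POLR1E vary among the wild-type columns.

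All calls among small subunit factors were upward. Of 13 members 5 (38.5%) were called higher and 0 lower, and the class median was 0.11. The share called in either direction, 38.5%, was below the 41.2% of all tested genes and the 54.5% at the members' level. Over all tested genes 20.5% were called higher and 20.7% lower, and at the members' level 25.3% and 29.1%. The 5 members called higher remained called in all 14 alternatives. At an unadjusted p of 0.05, 1 member was lower, DDX10 (log2 fold change -0.16, adjusted p = 0.0969), a helicase, and it was called lower with offsets for GC content and length, while DESeq2 and limma-voom gave 0 lower. The summed level of the 13 genes was 1293 ± 28.4 CPM in the wild type against 1463 ± 24.4 CPM in the knockout (SD, n = 3 each).

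NOL6 (chr9:33461353-33473930), a protein of the early precursor particle whose E-box window stands first above, was at 137, 136 and 150.4 CPM in WT1 to WT3 and 178, 178 and 189 CPM in KO1 to KO3. All knockout values exceeded all wild-type values and NOL6 rose 1.28-fold (log2 fold change 0.36, SE 0.06, adjusted p = 3e-05, edgeR). RRP12 (chr10:97356358-97426076), needed for late maturation and export of the particle, was at 114, 120.1 and 121 CPM in WT1 to WT3 and 155, 138 and 161 CPM in KO1 to KO3. It rose 1.28-fold as well (log2 fold change 0.36, SE 0.06, adjusted p = 9.2e-05, edgeR), with KO2 the lowest of the knockout libraries. NOP14, which brings assembly factors to the early particle, rose with a log2 fold change of 0.30 (adjusted p = 0.000364, edgeR). NOP14 had fractional counts in all 6 libraries and shares 737 exon bases with NOP14-AS1 on the opposite strand, which was not called.

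The UTP-A complex binds the precursor RNA first and links its synthesis to its processing, and 5 of its proteins are among the members. WDR43 (chr2:28894667-28948219) was at 127, 115 and 122 CPM in WT1 to WT3 and 155, 155 and 146 CPM in KO1 to KO3, a rise of 1.25-fold with groups apart (log2 fold change 0.32, SE 0.06, adjusted p = 0.000107, edgeR). UTP15 rose with a log2 fold change of 0.45 (SE 0.08, adjusted p = 0.000115, edgeR), and 225 of its exon bases are shared with ANKRA2 on the opposite strand, which was higher too. The other 3 proteins of the complex were not called. HEATR1 was at 178, 178 and 179 CPM in WT1 to WT3 and 178, 177 and 183 CPM in KO1 to KO3 (log2 fold change 0.01, SE 0.05, adjusted p = 0.9), with overlapping groups. It had fractional counts in all 6 libraries and shares 2095 exon bases with LGALS8 on the opposite strand, which was called higher (log2 fold change 0.24). WDR75 was at 79.2, 73.8 and 71.7 CPM in WT1 to WT3 and 74.3, 75.3 and 81.6 CPM in KO1 to KO3 (log2 fold change 0.04, SE 0.07, adjusted p = 0.646), and UTP4 had a log2 fold change of 0.04 (adjusted p = 0.62). These 5 transcripts spanned 0.01 to 0.45 on the log2 scale.

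The remaining small subunit members were not called. They are BYSL (log2 fold change 0.18, adjusted p = 0.0802), which accompanies the late particle, NOB1 (0.11, adjusted p = 0.125), the endonuclease that trims the end of the small subunit rRNA, RRP9 (0.08, adjusted p = 0.388), a protein of the snoRNP that guides early cleavage, and UTP20 (0.05, adjusted p = 0.531). BYSL and NOB1 each gained a call when library size alone was used for scaling, and BYSL also without KO2.

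**Figure D3:**
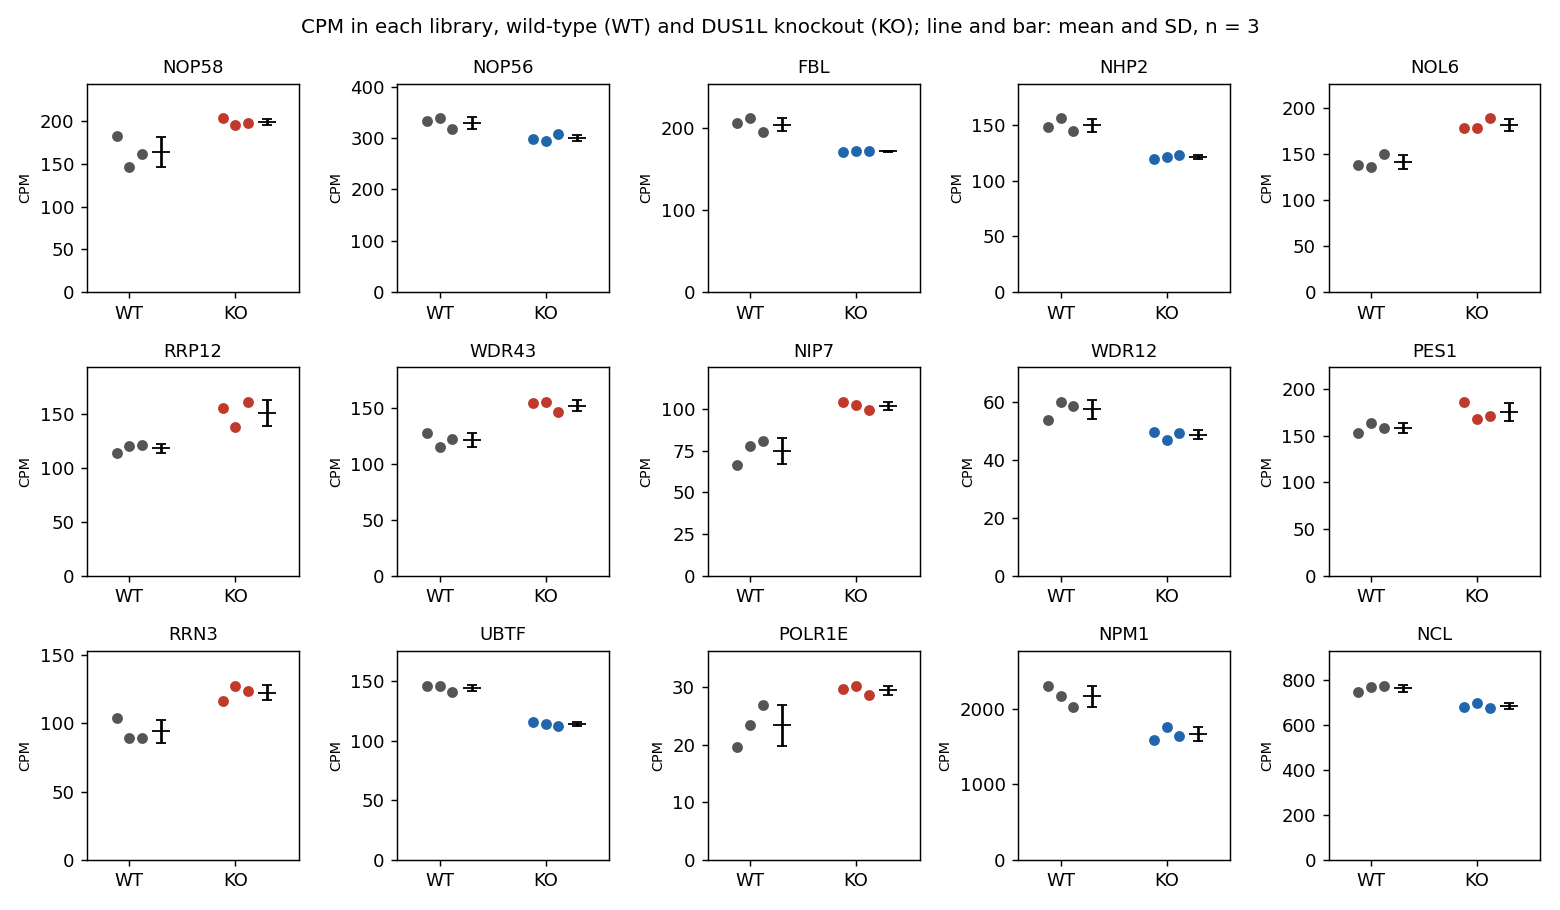
CPM (y axis, from 0) of 15 genes in each wild-type (WT) and DUS1L knockout (KO) library, points for libraries and a line with a bar for mean and SD (n = 3). NHP2, FBL, UBTF and NPM1 lie lower in all 3 knockout libraries and NOL6, NIP7 and RRN3 lie higher, as given in the text for each.

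Large subunit factors moved in both directions. Of 11 members 5 (45.5%) were called higher and 2 (18.2%) lower, with a class median of 0.12. Over all tested genes 20.5% were called higher and 20.7% lower, and at the members' level 25.3% and 29.1%. NIP7 (chr16:69337996-69343106), a factor of the large subunit precursor, had the largest log2 fold change of the class. It was at 66.2, 77.6 and 80.7 CPM in WT1 to WT3 and 104, 102 and 99.5 CPM in KO1 to KO3. No libraries overlapped and NIP7 rose 1.36-fold (log2 fold change 0.45, SE 0.07, adjusted p = 2.62e-05, edgeR). NIP7 had fractional counts in all 6 libraries and shares 873 exon bases with COG8 on the opposite strand. The strand setting of the counting is not given in the sources used here, and COG8 was lower in knockout cells (log2 fold change -0.30).

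NOP2, a methyltransferase that adds a methyl group to a cytosine of the large subunit rRNA, was at 165, 167 and 172 CPM in WT1 to WT3 and 186, 191 and 190.4 CPM in KO1 to KO3. The spread within groups was narrow, and NOP2 rose 1.13-fold (log2 fold change 0.17, SE 0.05, adjusted p = 0.00965, edgeR). An unnamed coding gene that shares 2550 exon bases on the same strand was at 0 to 1.19 CPM. PPAN (log2 fold change 0.18, adjusted p = 0.0296) and RRS1 (0.16, adjusted p = 0.0388), which helps place the small ribosomal RNA of the large subunit, were also higher by edgeR. PPAN shares exons on the same strand with the read-through gene PPAN-P2RY11 and had fractional counts in all 6 libraries, and the calls of PPAN and RRS1 were lost in 5 and 8 of the 14 alternatives.

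PES1, BOP1 and WDR12 form the PeBoW complex, which is needed to process the large subunit rRNA. WDR12 (chr2:202874261-203014798) was at 53.6, 59.8 and 58.6 CPM in WT1 to WT3 and 49.6, 47.0 and 49.4 CPM in KO1 to KO3. All knockout values were below all wild-type values and WDR12 fell 1.18-fold (log2 fold change -0.24, SE 0.07, adjusted p = 0.00944, edgeR). PES1 was at 153, 163 and 159 CPM in WT1 to WT3 and 186, 168 and 171 CPM in KO1 to KO3, a rise of 1.10-fold with KO1 highest (log2 fold change 0.15, adjusted p = 0.0421, edgeR), and this call was lost in 9 of the 14 alternatives. BOP1 had a log2 fold change of -0.15 and was not called (adjusted p = 0.0864), though without WT1 it was (log2 fold change -0.22, adjusted p = 0.00428).

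GNL3 (nucleostemin, a nucleolar GTPase) was at 237, 219 and 217 CPM in WT1 to WT3 and 197, 208 and 206 CPM in KO1 to KO3, a fall of 1.10-fold with groups apart (adjusted p = 0.0435, edgeR) that was lost in 9 of the 14 alternatives. EBNA1BP2 was at 198, 197 and 195 CPM in WT1 to WT3 and 198, 188 and 193 CPM in KO1 to KO3 (adjusted p = 0.696), and BRIX1 at 161, 155 and 146 CPM and 143, 152 and 148 CPM (adjusted p = 0.422). Both are early-binding factors and the groups overlapped for both. NOP16 had a log2 fold change of 0.12 (adjusted p = 0.0931). When 1 library was left out, between 2 and 4 large subunit genes were called higher, with 2 without WT2, without KO1 and without KO3, and 3 without WT1 and without WT3. Without WT2 none was called lower, since WDR12 then had an adjusted p of 0.0508, and without any 1 of the knockout libraries 1 was.

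The catalytic subunits of polymerase I were not called, and UBTF and RRN3, which act in initiation, moved in opposite directions. Of 7 members 2 (28.6%) were called higher and 1 (14.3%) lower, with a class median of 0.005. The share called in either direction was 42.9%, near the 41.2% of all tested genes and below the 54.5% at the members' level. UBTF (chr17:44205033-44221626), which coats and opens the ribosomal DNA, was at 146, 146 and 141 CPM in WT1 to WT3 and 116, 114 and 113 CPM in KO1 to KO3. The groups were far apart relative to their spread and UBTF fell 1.26-fold (log2 fold change -0.34, SE 0.05, adjusted p = 3.4e-05, edgeR). RRN3 (chr16:15060033-15094311), which joins the polymerase to the promoter complex, was at 104, 89.5 and 89.1 CPM in WT1 to WT3 and 117, 127 and 124 CPM in KO1 to KO3. It rose 1.30-fold with no overlap (log2 fold change 0.38, SE 0.07, adjusted p = 9.29e-05, edgeR). Counts of RRN3 were fractional in all 6 libraries, and its 3 annotated pseudogenes together reached a mean of 0.134 CPM in the wild type and of 0.361 CPM in the knockout, so reads shared with them could be split.

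POLR1E, a subunit of the polymerase that aids initiation, was at 19.6, 23.5 and 26.9 CPM in WT1 to WT3 and 29.6, 30.2 and 28.6 CPM in KO1 to KO3. It rose 1.26-fold (log2 fold change 0.34, SE 0.10, adjusted p = 0.0114, edgeR), with WT1 the lowest library, and without WT1 the call was lost (log2 fold change 0.23, adjusted p = 0.0599). POLR1A, the largest subunit, was at 59.0, 75.2 and 79.5 CPM in WT1 to WT3 and 68.0, 71.7 and 68.1 CPM in KO1 to KO3 (log2 fold change -0.04, SE 0.09, adjusted p = 0.744). WT1 was again the lowest, and without it POLR1A was called lower (log2 fold change -0.16, adjusted p = 0.0471). POLR1C, a subunit shared with RNA polymerase III, was at 37.9, 35.8 and 34.0 CPM in WT1 to WT3 and 35.5, 36.5 and 36.1 CPM in KO1 to KO3 (log2 fold change 0.01, SE 0.08, adjusted p = 0.966), with overlap.

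POLR1B, the other catalytic subunit, had a log2 fold change of 0.14 (adjusted p = 0.134) and TCOF1 (treacle), which partners UBTF at the ribosomal DNA, one of -0.08 (adjusted p = 0.345). Without WT1 both were called, POLR1B higher (0.19, adjusted p = 0.0371) and TCOF1 lower (-0.15, adjusted p = 0.0232), which brought the polymerase I genes called lower from 1 to 3. WT1 is the library that stood apart on component 2.

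Of the 4 nucleolar proteins with several roles, 2 (50%) had transcripts called lower and 0 higher. The share called in either direction over all tested genes was 41.2%, and at the members' level 54.5%. Called lower were 20.7% of all tested genes and 29.1% of those at the members' level. With library size alone for scaling 1 of the 4 was called lower and 1 higher. NCL then lost its call (adjusted p = 0.0532, edgeR) and DDX21 gained one. NPM1 (nucleophosmin, chr5:171387116-171411810), a histone and ribosome chaperone that forms the outer layer of the nucleolus, was at 2310, 2180 and 2030 CPM in WT1 to WT3 and 1593, 1769 and 1648 CPM in KO1 to KO3. It fell 1.30-fold with groups apart (log2 fold change -0.38, SE 0.06, adjusted p = 1.27e-05, edgeR), the largest fall among the members. Its 49 annotated pseudogenes summed to a mean of 8.49 CPM in the wild type and of 7.64 CPM in the knockout. Over all 6 libraries that was 0.42% of the gene's level. NCL (nucleolin), which binds nascent precursor RNA, was at 744, 769 and 771 CPM in WT1 to WT3 and 679, 695 and 672 CPM in KO1 to KO3, and fell 1.12-fold (log2 fold change -0.16, SE 0.05, adjusted p = 0.00966, edgeR).

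The 2 other proteins of this class were not called. DDX21, a helicase that acts in both polymerase I and II transcription, was at 378, 349.5 and 357 CPM in WT1 to WT3 and 382, 395 and 388 CPM in KO1 to KO3 (log2 fold change 0.10, adjusted p = 0.101). Its groups did not overlap, and it was called higher without WT1 (0.14, adjusted p = 0.0207). MYBBP1A, a nucleolar transcription regulator, was at 125, 153 and 156 CPM in WT1 to WT3 and 157, 151 and 154 CPM in KO1 to KO3 (log2 fold change 0.09, adjusted p = 0.309), with WT1 below the other 5 libraries.

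NPM1 dominated the summed transcript level of the group. It made up 26.4% of the wild-type sum, which was 8224 ± 111 CPM against 7829 ± 72.1 CPM in the knockout (SD, n = 3 each). Without NPM1 the sums were 6051 ± 29.7 CPM in the wild type and 6159 ± 36.2 CPM in the knockout, so the direction of the sum turned on that 1 gene. Per kilobase of the canonical transcript, NPM1 had the highest wild-type level of the members at 1647 RPKM (CPM divided by kilobases of transcript) and POLR1A the lowest at 5.71 RPKM. Median wild-type levels on that scale were 136 RPKM for nucleolar proteins with several roles, 127 RPKM for snoRNP genes, 63.4 RPKM for large subunit genes, 28.3 RPKM for small subunit genes and 25.4 RPKM for polymerase I genes. Per kilobase of merged exons, which hold retained introns, NPM1 was again highest, at 262 RPKM, and DDX10 was lowest, at 2.27 RPKM.

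Ratios between transcripts whose proteins work together lay apart between the genotypes in 8 pairs of genes chosen after the values were seen. NOP58 to NOP56 was 0.548, 0.434 and 0.511 in wild-type and 0.683, 0.664 and 0.643 in knockout libraries. RRN3 to UBTF was 0.712, 0.614 and 0.631 in wild-type and 1.01, 1.11 and 1.10 in knockout libraries, a difference of 1.65-fold. PES1 to WDR12 was 2.85, 2.72 and 2.71 in wild-type and 3.74, 3.57 and 3.46 in knockout libraries. In each of these the groups were apart.

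GAR1 to NHP2 was 0.332 ± 0.002 in wild-type and 0.411 ± 0.029 in knockout libraries (SD, n = 3 each). The other 4 ratios, of FBL to NOP56, NOP58 to FBL, DKC1 to NHP2 and PES1 to BOP1, differed by 1.08-fold to 1.45-fold. Of the genes in these pairs GAR1, DKC1 and BOP1 were not called. Since the pairs were picked after the values were seen, the ratios are a description with no test. They restate the levels above within a library and need no scaling between libraries.

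**Figure D4:**
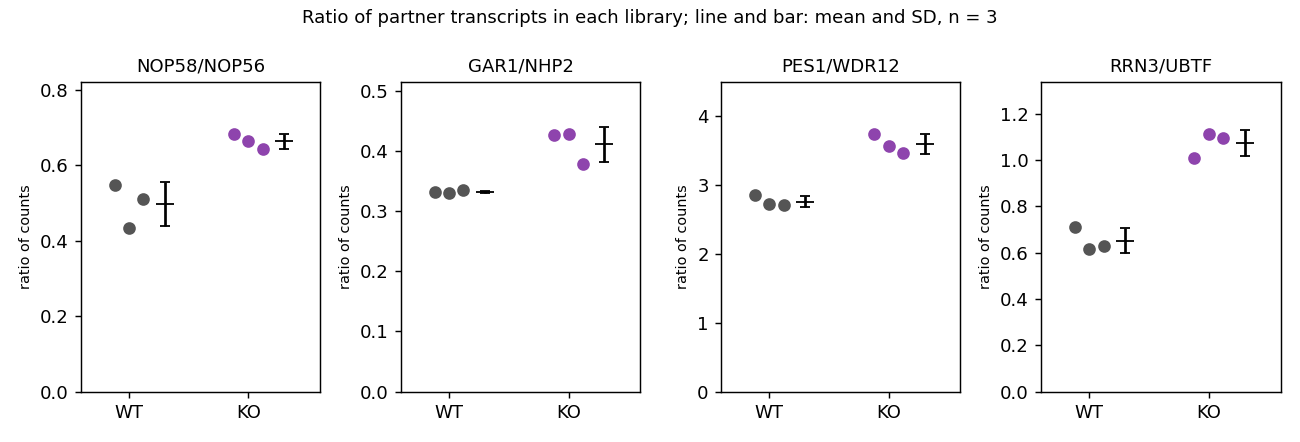
Ratio of counts (y axis, from 0) of 4 gene pairs in each wild-type (WT) and DUS1L knockout (KO) library, points for libraries and a line with a bar for mean and SD (n = 3). In all 4 panels the 3 knockout points lie above the 3 wild-type points, most widely for RRN3/UBTF (0.652 ± 0.053 against 1.07 ± 0.06).

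Of 129 other genes of the pathway, listed by role from textbook knowledge and all tested, 52 (40.3%) were called higher, 8 (6.2%) lower and 69 were not called by edgeR, with a median log2 fold change of 0.11. Over all tested genes the shares were 20.5% higher and 20.7% lower, and among genes at the members' level 25.3% and 29.1%. With offsets for GC content and length the split was 46 higher and 20 lower. Without WT2 37 were higher and 5 lower, without KO1 37 and 7, and without KO3 40 and 5. None was called by the 1.5-fold test by edgeR, which took 1 at an unadjusted p of 0.05. For the large subunit, 24 of 45 were higher and 3 lower (median 0.17), among them RSL1D1 (log2 fold change 0.59, adjusted p = 1.02e-08), a nucleolar protein that binds the precursor, ZNF622 (0.55), a late cytoplasmic factor, and NOC3L (0.36), with DDX54 (-0.27) and PWP1 (-0.23) lower. RSL1D1 was at 251, 258 and 269.5 CPM in WT1 to WT3 and 393, 391 and 388 CPM in KO1 to KO3, so its groups were far apart. For the small subunit, 17 of 43 were higher and 1 lower (median 0.11).

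UTP23 had the largest rise of the small subunit list, from 34.9, 36.6 and 36.4 CPM in wild-type to 61.6, 58.3 and 56.8 CPM in knockout libraries (log2 fold change 0.71, SE 0.07, adjusted p = 1.07e-07, edgeR). BUD23 (0.40), a methyltransferase of the small subunit rRNA, and UTP3 (0.37) rose too, and RRP36 fell (-0.20). Of 15 further polymerase I genes 5 (33.3%) were higher and 1 (6.67%) lower. The share called, 40%, was near the 41.2% of all tested genes and below the 54.5% at the members' level. POLR1G, a polymerase I subunit, rose (0.53, adjusted p = 0.00147), as did BAZ2A (0.24), a silencing factor of ribosomal DNA, while POLR2H, a subunit shared by all 3 nuclear polymerases, fell from 80.2, 78.2 and 78.3 CPM to 60.8, 63.0 and 61.9 CPM (-0.35, adjusted p = 9.85e-05, edgeR).

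Among 12 snoRNP assembly factors 4 were higher, among them ZNHIT6 (0.40, adjusted p = 0.000499, edgeR), NAF1 (0.37) and TGS1 (0.20), and 2 lower, RUVBL1 (-0.16) and PIH1D1 (-0.20). The share called in this list was 50%, between the 41.2% of all tested genes and the 54.5% at the members' level. The snoRNP members had 1 higher and 4 lower. Of 14 exosome genes, whose products trim precursor ends, EXOSC6 (0.59, adjusted p = 1.75e-06, edgeR) and DIS3 (0.24) were higher, EXOSC3 (-0.20) was lower and 11 were not called. The share called here, 21.4%, was below both of those shares.

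**Figure D5:**
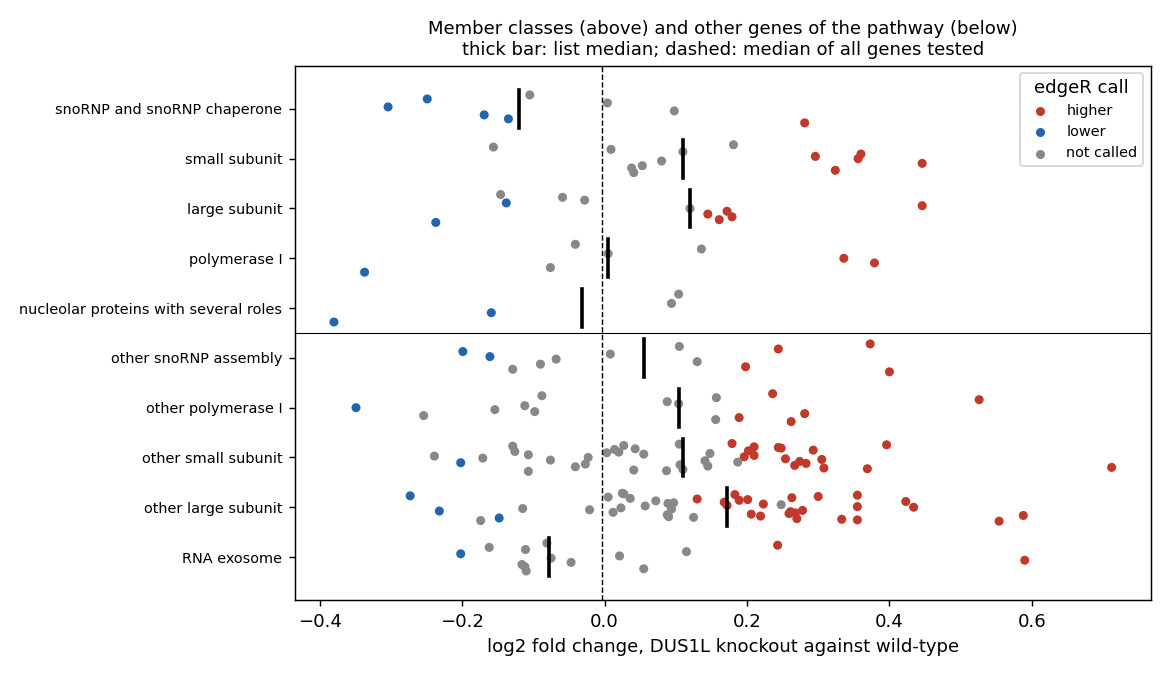
Log2 fold change (x axis) of every member by class (upper rows) and of 129 other genes of the pathway by list (lower rows), coloured by edgeR call, with a thick bar at each list's median and a dashed line at the median of all genes tested. The other large subunit list has its median at 0.17 with 24 red points, and the snoRNP class has its median at -0.12.

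Transcripts of regulators of this pathway were read beside it. MYC was at 46.7, 41.6 and 47.6 CPM in WT1 to WT3 and 49.4, 45.9 and 48.7 CPM in KO1 to KO3 (log2 fold change 0.09, adjusted p = 0.382, edgeR), with overlapping groups. MXD1, a MAX partner that competes with MYC for E-boxes, was at 20.9, 18.4 and 20.7 CPM in WT1 to WT3 and 58.0, 51.7 and 49.0 CPM in KO1 to KO3, a 2.65-fold rise (adjusted p = 1.56e-10, edgeR). MAX, MNT and MXD4 were not called.

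CDKN1A, a cell cycle inhibitor, and MDM2, a ubiquitin ligase, rose. CDKN1A went from 198, 195 and 198 CPM to 462, 505 and 438 CPM (log2 fold change 1.25, adjusted p = 1.4e-12) and MDM2 from 82.9, 95.0 and 92.5 CPM to 175, 193 and 158 CPM (0.96, adjusted p = 1.22e-08), both by edgeR and both past the 1.5-fold test. RPL5 and RPL11, ribosomal proteins that bind MDM2 when not built into ribosomes, fell, with log2 fold changes of -0.19 and -0.31.

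The products of the pathway were not read out by these libraries. Nuclear ribosomal RNA entries took between 5.8e-06% and 0.00011% of the counts. The 8 members that host snoRNA or scaRNA genes contain 26 of them, and these received 1 count in all 6 libraries together. Hosts include NOP56 (5 snoRNA genes), NOP58 (4), GNL3 (6) and NCL (3). Some of these genes overlap annotated exons of their host, and whether reads from them were counted to the host was not tested. Mitochondrial rRNA, which has its own polymerase, took 0.426% to 0.557% of counts in wild-type and 0.563% to 0.593% in knockout libraries.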

How the data were processed

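For 6 paired-end BGISEQ-500 libraries of A375 cells the authors processed reads with the genome build GRCh38 (also named hg38), per the submitters' processing notes, and deposited 1 table of estimated counts per gene, for which no normalization is recorded. The aligner, counter and strand setting are not given in the sources used here. Of 63086 genes, 62541 (99.14%) matched GENCODE 44 by identifier. Of the members, 28 had whole counts throughout and 8 had fractional counts in all libraries, and 19 share exon bases with a protein-coding or long noncoding gene.

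Counts were rounded, filtered with filterByExpr (minimum count 10), scaled by TMM and compared in R 4.3.3 with edgeR 4.0.16 (robust quasi-likelihood, genotype as the one term, all genes together), with Benjamini-Hochberg adjustment, a threshold of 0.05 and two-sided tests. DESeq2 1.42.0 and limma 3.58.1 were alternatives. Standard errors were derived from the F statistics. The scripts were tested on simulated data. No libraries matched within sampling noise (chi-square per degree of freedom 3.64 to 6.77 within and 31.05 to 45.45 between groups). Correlations of deviations of same-numbered libraries were -0.03 to 0.026, so the numbers do not pair them. The 3-count limit covers counting error only.

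The members and lists were chosen with earlier results of these data known. Every library's value is given, per class, for the 3 called members with the smallest p, up to 2 not called with the largest p and called members against the class median, and by the same rule up to 3 called genes of each other list with the smallest p and up to 2 of the opposite direction are named, most by log2 fold change alone. NOP56 and PES1 were added after their values were seen. Sequences are from RefSeq. Alternatives were other scaling, filters and tests, a replicate block, GC and length offsets and leaving out each library. Some items of the lists are not reported here.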

Additional observations from a re-analysis of the deposited data

How the results depend on the processing

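Of the 22 called members, 13 kept their call in all 14 alternatives: NOP58, RRP12, NOP2, NOP14, UTP15, WDR43, RRN3, NIP7 and NOL6 higher, and FBL, NHP2, NPM1 and UBTF lower. No called member changed sign in any of the 14. Of the 21 members not called, 11 gained a call in some alternative and 10 in none. With library size alone, 18 members were higher and 5 lower (median log2 fold change 0.098), 3 other pathway genes were lower, and the median of all genes was 0.041. With GC and length offsets the members' median was 0.005 and that of all genes -0.038, and 20 other pathway genes were lower. The cause of these shifts was not tested. When each library was left out in turn, members called lower ranged from 5 (without WT2) to 10, and the members' median from 0.027 (without WT2) to 0.083 (without WT3). Other pathway genes called higher then ranged from 37 to 56 and those called lower from 5 to 9. With the replicate block, 11 members were higher and 6 lower, their median was 0.053, and 3122 genes were higher and 3119 lower; the numbers do not pair the libraries. Each member had 334 counts or more in every library, and the smallest called difference was 1.10-fold.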
